A study of Mus musculus with 4 samples.

Results

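The integrated stress response and tRNA charging genes are 33 mouse genes chosen by name, of 32285 gene rows in each library, and all 33 were found. They comprise 4 transcription factors (Atf4, Atf5, Ddit3, Cebpb), 6 feedback and stress effectors (Trib3, Chac1, Sesn2, Ppp1r15a, Gdf15, Vldlr), 6 enzymes of amino acid synthesis (Asns, Psat1, Phgdh, Psph, Pycr1, Aldh18a1), 2 one-carbon enzymes (Shmt2, Mthfd2), 3 amino acid transporter subunits (Slc7a5, Slc3a2, Slc1a5), the tRNA exporter Xpot and 11 cytosolic aminoacyl-tRNA synthetases (Aars, Cars, Eprs, Gars, Iars, Lars, Nars, Sars, Tars, Wars, Yars). They were measured by droplet single-cell sequencing of transcript 3' ends in mouse tumors grown from B16F10 melanoma cells, taken on day 14, or from MC38 colon carcinoma cells, taken on day 26. The hosts were wild type (WT) or lacked Lrrc25 (Lrrc25-/-), a leucine-rich repeat membrane protein of myeloid cells, and no treatment was given. The inoculated tumor lines are not described as edited, so the deletion belongs to the host cells. Each of the 4 libraries (WT B16F10, Lrrc25-/- B16F10, WT MC38, Lrrc25-/- MC38) was 1 pool of tumor pieces from 3 mice, to which bead-isolated CD45+ cells were added, so cell proportions were set by that step.

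The integrated stress response begins when kinases that sense amino acid shortage, heme shortage, double-stranded RNA or misfolded protein phosphorylate the translation factor eIF2. General translation then falls while the mRNA of the transcription factor ATF4 is translated more, and ATF4 with partners such as CHOP (Ddit3), ATF5 and C/EBPβ (Cebpb) raises genes for amino acid synthesis, amino acid import and the synthetases that load amino acids onto tRNAs. The response is best known in T cells and tumor cells for adjusting to scarce amino acids, and its feedback arm includes the phosphatase subunit GADD34 (Ppp1r15a) and the pseudokinase TRIB3. ATF4 activity is set largely at translation, which RNA counts do not measure.

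Promoter sequences show the shared element through which several of these genes are known to answer ATF4. Promoters, taken from RefSeq (GRCm38.p6) as 250 bases before to 50 bases after the annotated start, were present for 27 of the 33 genes. The C/EBP-ATF core TGATGNAA, searched as that or as TTNCATCA on the other strand, was found in 10 of these 27 genes (37.0%), against 4.51% of 27025 genes with a promoter. The 10 genes were Asns, Trib3, Chac1, Pycr1, Vldlr, Aars, Gars, Iars, Tars and Yars. Printed here, 5' to 3' in the direction of transcription with the match in capitals, are 5 of them whose RNA levels the later comparisons turn on, together with Vldlr, which holds the same letters but had almost no RNA in these cells.
Asns (chr6:7693210-7693262, reverse strand): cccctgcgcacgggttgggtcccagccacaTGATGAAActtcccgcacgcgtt
Chac1 (chr2:119351019-119351086, forward strand): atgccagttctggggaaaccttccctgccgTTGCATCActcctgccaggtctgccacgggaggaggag
Pycr1 (chr11:120643814-120643881, reverse strand): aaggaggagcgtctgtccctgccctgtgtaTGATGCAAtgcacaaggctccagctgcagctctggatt
Aars (chr8:111033700-111033767, forward strand): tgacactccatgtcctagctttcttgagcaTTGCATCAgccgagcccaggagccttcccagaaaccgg
Tars (chr15:11399659-11399703, reverse strand): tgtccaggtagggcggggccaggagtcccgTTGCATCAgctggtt
Vldlr (chr19:27216790-27216857, forward strand): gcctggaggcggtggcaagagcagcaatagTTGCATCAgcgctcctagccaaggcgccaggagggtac
These windows end before the RefSeq transcription start used here. In the GENCODE M21 annotation, Aars and Vldlr start upstream of their windows, at 111033144 and 27216484. Asns and Tars start inside theirs, at 7693254 and 11399665. A match is a description of the letters, not of binding, and the 17 genes without one, Atf4 and Ddit3 among them, lack these letters only within this window.

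Cells were assigned to classes by marker genes, and counts of each class were summed within a library and scaled to CPM, the count per 1000000 UMIs of that class. Values in 4 libraries are given in the order WT B16F10, Lrrc25-/- B16F10, WT MC38, Lrrc25-/- MC38. The libraries held 105338548 to 138841749 UMIs in 10490 to 18545 barcodes, of which 9319 to 15792 were kept, with a median of 4340.5 to 9675 UMIs per kept barcode, highest in WT B16F10. Macrophages numbered 2991, 3163, 7493 and 7220, CD8 T cells 232, 597, 480 and 742, conventional CD4 T cells 56, 96, 48 and 83, Treg cells 76, 122, 72 and 186, NK cells 67, 131, 107 and 200 and tumor cells 2995, 1807, 1566 and 1023. Lrrc25 itself stood at 169, 4.87, 96.9 and 2.11 CPM in macrophages, low in both Lrrc25-/- libraries. B16F10 tumor cells carried all 8 listed melanoma markers, such as Pmel at 4757 and 5996 CPM. The MC38 tumor class did not carry the epithelial markers Krt8, Krt18, Krt7, Krt19, Epcam and Cldn7, which were all under 0.3 CPM, and rests on Sox9 (858 and 761 CPM), Tnnt2 and Crabp2 in cells gated to hold no UMI of the leukocyte gene Ptprc, so it may also hold host stromal cells. The tumor models also differed in day, in host sex (Xist 0.0373, 0.0312, 657 and 666 CPM in macrophages) and in the median mitochondrial share of kept cells (0.325%, 0.812%, 2.47% and 2.32%), so none of these can be told apart from the tumor line.

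**Figure D1:**
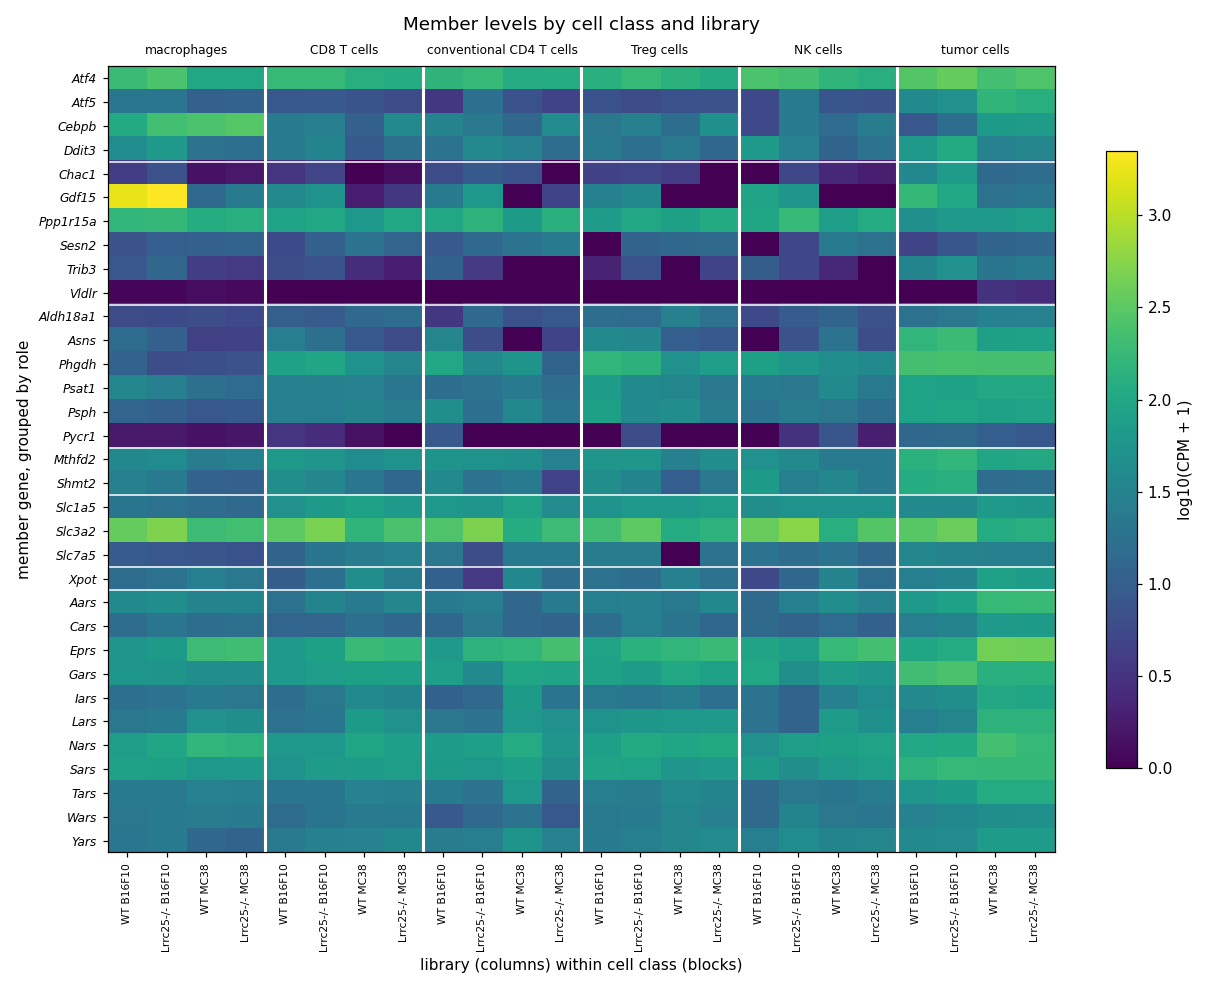
Level of each of the 33 genes, as log10(CPM + 1) (color), in 6 cell classes (blocks) of the 4 libraries (columns), with genes grouped by role (rows). Tumor cells are brightest for the amino acid synthesis enzymes, Gdf15 is brightest in macrophages of the 2 B16F10 libraries, and Vldlr is near 0 throughout.

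Tumor cells held more RNA of most of these genes than macrophages of the same tumors. With edgeR's quasi-likelihood test, 25 of 32 genes tested were higher and 5 lower in B16F10 tumor cells (39.0% of all genes tested were higher and 37.5% lower), and 26 of 33 were higher and 3 lower in MC38 tumor cells (39.9% and 39.6%). The median log2 difference was 0.76 for these genes and 0.04 for all genes in B16F10, and 1.62 and 0.00 in MC38. Each fit compared 2 libraries with 1 residual degree of freedom, and tumor cells were also more often cycling (67.7, 55.3, 62.8 and 63.8% of cells, against 30.8, 22.5, 10.9 and 11.5% of macrophages). The part of cycling in these differences was not tested.

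All 6 amino acid synthesis enzymes were higher in tumor cells of both models. Phgdh, which commits glycolytic 3-phosphoglycerate to serine, stood at 232, 234, 227 and 226 CPM in tumor cells and 10.3, 5.12, 5.65 and 6.14 CPM in macrophages, log2 differences of 4.70 ± 0.20 (SE, adjusted p = 1.1e-07) and 4.87 ± 0.10 (SE, adjusted p = 9.5e-10). Psat1, the next enzyme of that pathway, stood at 86.6, 81.6, 104 and 105 against 33, 25.9, 16.1 and 13.8 CPM. Psph, which releases serine in the last step, stood at 85.7, 96.1, 82.8 and 83.2 against 11.3, 9.74, 7.18 and 7.78 CPM. The serine pathway thus lay higher in the 4 tumor cell samples than in any macrophage sample. Asns, which makes asparagine, stood at 161, 188, 80.1 and 81.9 CPM against 14.5, 9.52, 3.31 and 3.50 CPM, differences of 3.60 and 4.18. Aldh18a1, the entry to proline synthesis, stood at 17.2, 20.2, 28.6 and 29.6 against 4.93, 4.59, 5.12 and 4.41 CPM. Pycr1, which completes proline, stood at 12, 13.5, 9.13 and 7.36 against 0.709, 0.687, 0.445 and 0.614 CPM. Tumor cells and macrophages did not overlap for any of these 3 genes either. How many of all genes lack overlap between these samples was not counted, and 39.0% and 39.9% of all genes were called higher in tumor cells.

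Tumor cell RNA was also found in macrophage droplets. The tumor markers stood in macrophages at 3.26%, 1.67%, 1.55% and 1.84% of their level in tumor cells. At that share, the tumor cells' Phgdh would give 73.8, 76.2, 62.1 and 67.7% of the Phgdh in macrophages, their Asns 36.3, 33, 37.5 and 43% and their Chac1 38.4, 19.5, 44.6 and 40.1%. For Atf4 the same figure was 4.91, 2.35, 3.41 and 4.79%. For Pycr1 it was 55.3, 32.7, 31.7 and 22%. Phgdh in macrophages thus stood nearest to that background, Pycr1, Asns and Chac1 came next, and Atf4 lay well above it. The part of this RNA in the differences was not tested.

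Of the one-carbon enzymes, 1 was called in both tumor lines and 1 in B16F10 alone, and the difference between the lines was not tested. Mthfd2, a mitochondrial folate enzyme of dividing cells, stood at 139, 164, 94.1 and 105 CPM in tumor cells against 35.4, 41.4, 25.5 and 28.4 CPM in macrophages and was higher in both models (1.70 and 1.49). Shmt2, which splits serine to feed that pathway, stood at 118, 125, 14.7 and 16.3 against 28.1, 22.6, 10.3 and 9.75 CPM. It was higher in B16F10 tumor cells (1.99 ± 0.10 (SE, adjusted p = 4.2e-07)), while in MC38 the difference was 0.23 ± 0.12 (SE, adjusted p = 0.1). Of the transporters, the light chain Slc7a5, which imports leucine and other large neutral amino acids, stood at 33, 30.2, 27.6 and 26.9 against 8.43, 7.12, 6.65 and 5.93 CPM and was higher in both models. The glutamine transporter Slc1a5 stood at 39.2, 38.7, 62.4 and 58.4 against 19, 17.3, 14.9 and 13 CPM and was also higher. Slc3a2, the heavy chain of Slc7a5 and several other transporters, was lower in tumor cells (304, 383, 114 and 129 against 363, 509, 197 and 215 CPM, differences of -0.61 and -1.16).

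Among the transcription factors, Atf4 RNA was modestly higher in tumor cells (286, 355, 219 and 264 CPM against 189.9, 252, 99.4 and 101 CPM, differences of 0.26 and 0.87). Atf5 stood at 38.4, 48.7, 154 and 127 against 19.9, 19.8, 9.74 and 10.3 CPM, and its difference was 0.84 in B16F10 and 3.41 in MC38. Ddit3 stood at 62.9, 112, 29.3 and 32.9 against 42.1, 61.7, 17 and 16 CPM and was higher in both. Cebpb, a C/EBP factor prominent in myeloid cells, went the other way at 7.21, 15.2, 66.2 and 67.9 against 109.9, 215, 251 and 295 CPM. Among the effectors, the glutathione-degrading enzyme Chac1 (36, 67.1, 12.8 and 14.9 against 3.06, 5.74, 0.445 and 0.682 CPM) and Trib3 (31.1, 48.5, 19.1 and 22.9 against 7.16, 11.9, 3.12 and 2.75 CPM) were higher in tumor cells of both models. Ppp1r15a was lower in both (47, 63.6, 61.1 and 74.4 against 166, 171, 119 and 129 CPM). Sesn2, a leucine sensor that restrains mTORC1, stayed between 3.88 and 11.8 CPM in tumor cells and was lower than in macrophages by test in B16F10 alone. Vldlr, a lipoprotein receptor, reached 2.14 and 1.65 CPM in MC38 tumor cells and at most 0.278 CPM in any macrophage or B16F10 sample of these 2 classes. Gdf15, a secreted stress cytokine of the TGF-β superfamily, was lower in B16F10 tumor cells than in macrophages (log2 -4.20), and in MC38 the difference was -0.30 with TMM and 0.09 with class totals.

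Of the synthetases, 9 of 11 were higher in B16F10 tumor cells and 10 of 11 in MC38 tumor cells, and none was lower. Gars, which charges glycine, stood at 208, 242, 134 and 135 CPM against 56.1, 53.5, 42.6 and 43.4 CPM, with 1.75 in B16F10 and 1.252 in MC38. Aars, which charges alanine, stood at 61.5, 80.9, 173 and 186 against 39.4, 43.1, 30.1 and 31.6 CPM, with 0.50 and 2.15. Yars, for tyrosine, stood at 37.5, 40.4, 67.6 and 67.2 against 19.9, 22.5, 12.3 and 10.9 CPM, with 0.60 and 2.15. These 3 genes therefore gave the same direction with unequal sizes, and the difference between the lines was not tested. Cars, for cysteine, stood at 25.7, 30.8, 64.1 and 65 against 14.8, 19.4, 15 and 16.4 CPM. Iars, for isoleucine, stood at 36.7, 44.3, 104 and 93.3 against 15.5, 17.6, 24.1 and 20.1 CPM. Tars, for threonine, stood at 54.8, 65.6, 116 and 116 against 22.9, 24, 29.7 and 27.7 CPM. All of these were called in both models. Lars, for leucine, stood at 26.9, 32.4, 146 and 147 against 21.1, 22.3, 48.4 and 46.2 CPM and was called in MC38 alone. Sars, for serine, stood at 145, 174, 169 and 170.0 against 82.7, 78.7, 60.4 and 62.6 CPM. Wars, for tryptophan and also an interferon-γ target, stood at 30.0005, 35.6, 45.7 and 47.5 against 20.6, 22.7, 25.4 and 23.6 CPM, a small difference of 0.32 and 0.54. Xpot, which carries mature tRNAs out of the nucleus, stood at 26.9, 31.7, 82.3 and 69.9 against 14.2, 17.5, 27 and 20.7 CPM and was higher in both models. Nars, for asparagine, passed the test in neither model (98, 109, 223 and 177 against 74.4, 94.6, 160.4 and 144 CPM), and in MC38 its difference moved from -0.01 to 0.38 with class totals as the scale.

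The related lists gave mixed directions in the same fits. Of 9 other cytosolic synthetases, 6 were higher and 0 lower in B16F10 tumor cells, and 6 higher and 2 lower in MC38 tumor cells. Of 14 genes of the unfolded protein response of the endoplasmic reticulum, by contrast, 1 was higher and 11 were lower in either model, with medians of -0.79 and -1.10. Of the other genes linked to ATF4, 9 were higher and 9 lower of 18 tested in B16F10, and 11 higher and 6 lower of 17 in MC38. Cth, which makes cysteine from cystathionine, was among the highest (log2 4.78 and 4.06), while the cystine importer Slc7a11 was lower (-2.53 and -3.36).

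Macrophages of MC38 tumors held less RNA of most of these genes than macrophages of B16F10 tumors. In the edgeR fit over both genotypes, with 1 residual degree of freedom, 21 of 32 genes tested were lower and 3 were higher in MC38 (31.6% of all genes were lower and 33.6% higher), with a median of -0.79 against 0.03 for all genes. Scaling to class totals instead of TMM moved the median of all genes to 0.43 and that of these genes to -0.39, with 16 lower and 5 higher, so a difference is best read relative to the all-gene median, and Tars and Wars changed sign. Gdf15 differed most, at 1726, 2238, 12.8 and 22.5 CPM, a log2 difference of -7.25 ± 0.33 (SE, adjusted p = 1.4e-13). Both B16F10 samples lay far above both MC38 samples.

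Of the transcription factors, 3 of 4 were lower, Atf4 at 189.9, 252, 99.4 and 101 CPM (-1.53 ± 0.20 (SE, adjusted p = 5.8e-07)), Ddit3 at 42.1, 61.7, 17 and 16 CPM (-2.03) and Atf5 at 19.9, 19.8, 9.74 and 10.3 CPM (-1.39), and Cebpb did not pass the test. Of the effectors, 4 of 5 tested were lower, including Chac1 (-3.33), Trib3 (-2.07) and Ppp1r15a (-0.85). Of the synthesis enzymes, 4 of 6 were lower, led by Asns (-2.19) and Psat1 (-1.38), with Psph at -0.89 and Phgdh at -0.71. At the share of tumor markers in macrophages, tumor cell RNA would give 62.1 to 76.2% of that Phgdh, and its part in the difference was not tested. Both one-carbon enzymes were lower (Shmt2 -1.73, Mthfd2 -0.91), as were all 3 transporter subunits, with Slc3a2 at -1.47. The synthetases split: Eprs, the joint glutamate and proline enzyme, was higher (57.1, 66.6, 195 and 206 CPM, 1.30 ± 0.18 (SE, adjusted p = 2.1e-06)), as were Lars (0.72) and Nars (74.4, 94.6, 160.4 and 144 CPM, 0.45), while Aars, Cars, Gars, Sars and Yars were lower, Yars most (-1.27). With DESeq2, Phgdh, Cars, Slc7a5 and Nars did not pass (adjusted p = 0.13, 0.097, 0.074 and 0.076). Among 9 other cytosolic synthetases 6 were lower and 0 higher, and among 17 mitochondrial ones 7 were lower and 3 higher.

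Other lists moved along the same contrast. Of 12 immediate early and dissociation genes, which tissue handling can raise, 10 were lower and 1 higher in MC38 macrophages, and their summed level was 4831, 5299, 2386 and 2989 CPM. The heat shock gene Hspa1a in that list stood at 1227, 1232, 130.3 and 72.5 CPM. Of 10 interferon-γ-induced genes tested, 6 were higher and 1 was lower, with a summed level of 1397, 1526, 1463 and 1777 CPM. Among enzymes that consume amino acids, Arg1 (236, 781, 2382 and 1439 CPM), Nos2 and Ass1 were higher in MC38. Whether handling, day, host sex or cell state accounts for the difference in these genes cannot be told apart here. Of the eIF2 kinases and eIF2 subunits and their regulators, 5 were higher and 5 lower of 14, with the amino acid sensor Eif2ak4 (GCN2) at 1.70 and Eif2s1 at -1.51.

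**Figure D2:**
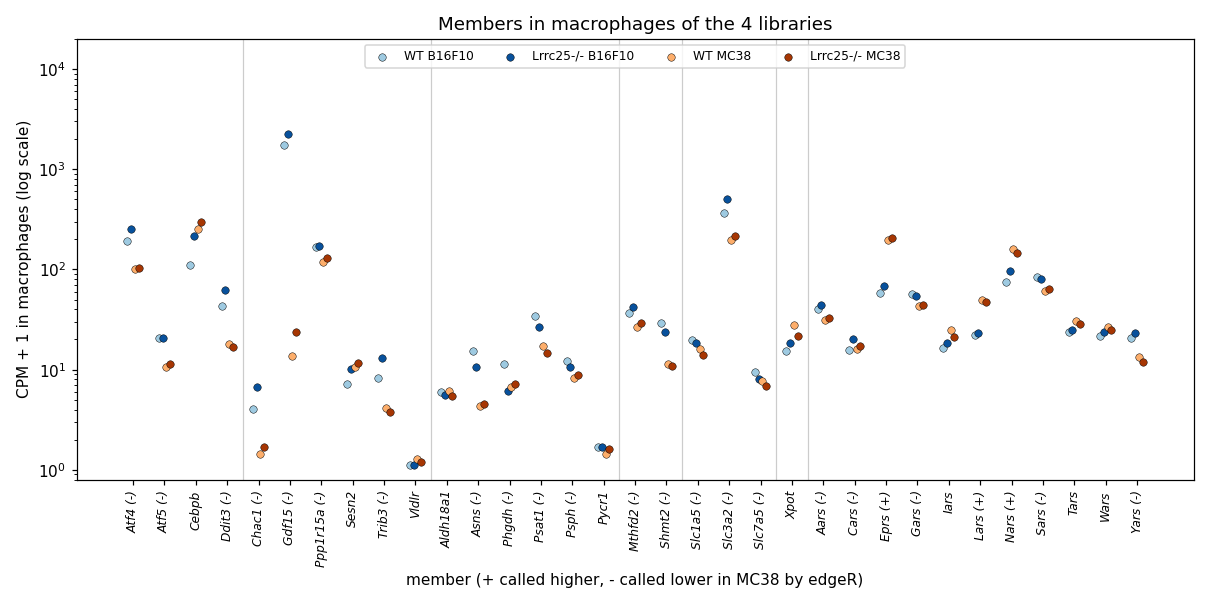
CPM + 1 (log axis) of each of the 33 genes in macrophages of the 4 libraries (points), with a plus or minus after the names of genes called higher or lower in MC38 by edgeR. Gdf15 spans from 1726 and 2238 CPM in B16F10 down to 12.8 and 22.5 CPM in MC38, while Eprs, Lars and Nars lie higher in MC38.

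The same contrast was made in lymphocytes. In CD8 T cells 11 of 30 genes were lower and 2 higher in MC38 (25.4% and 25.8% of all genes), in Treg cells 10 of 28 were lower and 0 higher (20% and 20.4%, 12 at an unadjusted p under 0.05), and in NK cells 7 of 24 were lower and 3 higher (20.3% and 22.3%). With DESeq2, 7 were lower and 0 higher in CD8 T cells (12.5% and 14.0% of all genes), 3 lower and 0 higher in Treg cells (11.6% and 9.06%), and 1 lower and 0 higher in NK cells (8.26% and 7.74%), so the lymphocyte counts depend on the tool. Atf4 (-1.01, -0.84 and -1.03), Slc3a2 (-1.49, -1.56 and -1.496), Mthfd2 and Phgdh were called lower in all 3 classes by edgeR. Eprs and Lars were called higher in CD8 T cells and NK cells, as in macrophages. Atf4 stood at 173, 176, 124 and 117 CPM in CD8 T cells, 132, 174, 143 and 112 CPM in Treg cells and 253, 225, 155 and 125 CPM in NK cells. In NK cells Sesn2 was also higher, at 0, 4.20, 23.3 and 17 CPM. Gdf15 in CD8 T cells of B16F10 tumors was close to what macrophage RNA in the droplets would give. They held 36.3 and 49.9 CPM, and the macrophage level at the share of macrophage markers found in CD8 T cells (2.40% and 2.09%) would give 41.4 and 46.7 CPM. In MC38 tumors CD8 T cells held 0.863 and 2.47 CPM, where the same estimate would give 0.187 and 0.605 CPM. The source of these Gdf15 UMIs was not tested. NK cells of B16F10 tumors held 84.2 and 56.7 CPM where that estimate would give 45.2 and 55.2 CPM. The WT value rests on 67 cells with 225647 UMIs. The estimate also leaves out tumor cell RNA, whose markers stood in these WT cells at 4.39% of their level in tumor cells. Whether Gdf15 exceeds such background in NK cells was not tested. Scaling to class totals moved the all-gene medians of these fits to 0.50, 0.57 and 0.29 and left 7, 6 and 3 genes lower.

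Between host genotypes, few of these genes differed within a tumor model. As each genotype was 1 pool per model, a gene was counted as different by size alone (at least 20 CPM in either pool, 50 UMIs in the 2 pools together, 1.5-fold after adding 1 CPM), intervals cover counting error only, and nothing within a model has a test. Summed over the 6 cell classes, 12 gene-by-class values were higher and 5 lower in Lrrc25-/- hosts with B16F10, and 7 higher and 3 lower with MC38. By the same rule, 0.764% to 23.1% of all genes measured were higher and 0.24% to 11.3% lower, depending on class and model. With B16F10 more of all genes were higher than lower in every class, so that tilt is not particular to these genes.

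In macrophages, which lost Lrrc25, 18 genes met the level rule with B16F10, and 1 of them was higher and 0 lower in Lrrc25-/- hosts (3.44% and 0.769% of all genes measured), with a median of 0.15 against 0.02 for all genes. With MC38, 16 genes met it, and 1 was higher and 0 lower (0.764% and 2.53%), with a median of 0.04 against -0.02. The gene with B16F10 was Cebpb, at 109.9, 215, 251 and 295 CPM, 1.95-fold (95% interval 1.87 to 2.04) higher there and 1.18-fold (95% interval 1.14 to 1.21) with MC38. The gene with MC38 was Gdf15, at 1726, 2238, 12.8 and 22.5 CPM, 1.75-fold (95% interval 1.57 to 1.96) higher there and 1.30-fold (95% interval 1.28 to 1.31) with B16F10. Both genes were thus higher in the Lrrc25-/- pool of each model, by unequal amounts. Gdf15 lies close to the deleted gene: in GRCm38 (GENCODE M21), Lrrc25 spans chr8:70616155-70621483 and Gdf15 chr8:70629393-70632456, 7909 bases apart on opposite strands. Whether the allele's surroundings bear on Gdf15 was not tested. Atf4 in macrophages stood at 189.9, 252, 99.4 and 101 CPM and Ddit3 at 42.1, 61.7, 17 and 16 CPM, both under 1.5-fold between genotypes.

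The transporter chain Slc3a2, also known as CD98 heavy chain, had a higher CPM in the Lrrc25-/- pool in every lymphocyte class of both models. It stood at 318, 479, 155 and 240.5 CPM in CD8 T cells, 1.51-fold (95% interval 1.37 to 1.67) higher with B16F10 and 1.55-fold (95% interval 1.37 to 1.75) with MC38. In conventional CD4 T cells, of which 48 to 96 per library were found, it stood at 270.4, 484, 119 and 197 CPM. In Treg cells it stood at 207, 317, 113 and 146 CPM and in NK cells at 372, 560.4, 128 and 279.9 CPM. Of these 8 differences 7 passed the size rule, all but Treg cells with MC38 (1.30-fold (95% interval 0.893 to 1.93)), and the MC38 value in CD4 T cells has an interval that reaches below 1 (0.973 to 2.92). In each of these comparisons 5.51% to 23.1% of all genes passed as higher, and how many of all genes do so in 7 of 8 was not counted. Macrophages held Slc3a2 at 363, 509, 197 and 215 CPM, in the same direction but under the rule. The Lrrc25-/- pool had the smaller share of cycling cells in each lymphocyte class of both models, for CD8 T cells 20.7, 14.4, 23.3 and 12%. In macrophages the shares were 30.8, 22.5, 10.9 and 11.5%. Among noncycling cells Slc3a2 passed the size rule in 5 of the 7 comparisons, and fell under it with B16F10 in CD8 T cells (log2 0.54) and NK cells (0.40). With TMM scaling it fell under the rule with B16F10 in CD8 T cells (0.48) and Treg cells (0.47). With cells thinned to 1000 UMIs it missed the rule with B16F10 in CD4 T cells (0.25) and Treg cells (0.54). Thinned CD4 T cells with MC38 (0.69) missed the level rule alone. Without doublet removal it missed the rule in CD8 T cells with MC38 (0.55) and NK cells with B16F10 (0.56). Under a stricter gate it did so in NK cells with B16F10 (0.53). In the edgeR fit over both models, Slc3a2 did not pass the threshold in CD8 T cells (0.58 ± 0.21 (SE, adjusted p = 0.996)) or in NK cells (0.84 ± 0.24 (SE, adjusted p = 0.073)).

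Besides Slc3a2, Ppp1r15a, Eprs, Psat1 and Phgdh passed the size rule in more than 1 lymphocyte comparison. In CD8 T cells 2 of 20 genes were higher and 1 lower with B16F10 (13% and 5.62% of all genes), and 3 of 21 higher and 2 lower with MC38 (5.51% and 6.23%). Aars stood at 17.3, 31.4, 23.7 and 34.4 CPM, and its log2 difference of 0.83 with B16F10 turned to -0.21 with every cell thinned to 1000 UMIs. Asns, at 26.5, 16.2, 7.34 and 4.95 CPM, was lower with B16F10 (log2 -0.68). Its difference was -0.015 after the same thinning, and it missed the rule with a pseudocount of 5 CPM (-0.57). Ppp1r15a stood at 87.5, 98.7, 60.4 and 101 CPM and Cebpb at 23.6, 26.1, 9.50 and 37.6 CPM, both higher with MC38. Phgdh at 82.9, 95.8, 52.2 and 32.2 CPM and Xpot at 8.63, 15.5, 44.9 and 24.2 CPM were lower with MC38, and both moved the other way with B16F10. For Cebpb, macrophage RNA at the share of macrophage markers would give 3.66 and 7.93 CPM in the MC38 pools. The 12 immediate early genes summed to 2395, 2372, 894 and 1393 CPM in CD8 T cells, so with MC38 that list was higher in the same pool as Ppp1r15a, while with B16F10 it was not, and its part was not tested.

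In conventional CD4 T cells 2 of 6 genes were higher and 1 lower with B16F10 (23.1% and 11.3%), and 1 of 3 higher and 0 lower with MC38 (12.3% and 11%). Besides Slc3a2 these were Eprs at 63.2, 148, 161 and 227 CPM and Phgdh at 98.6, 36.3, 53.5 and 11.1 CPM. In Treg cells 2 of 17 were higher and 2 lower with B16F10 (16.1% and 5.11%), and 0 of 10 either way with MC38 (7.34% and 7.45%). Eprs in Treg cells stood at 83.9, 136, 161 and 188 CPM, Psat1 at 67.4, 39.4, 33.5 and 20.7 CPM and Psph at 79.2, 37.4, 42.6 and 25.6 CPM. The serine enzymes Psat1 and Psph were the lower ones, in libraries where 52.6, 29.5, 27.8 and 14% of Treg cells were cycling. In NK cells 2 of 4 were higher and 0 lower with B16F10 (13.2% and 6.83%), and 2 of 15 higher and 1 lower with MC38 (12.3% and 6.52%). Ppp1r15a was the second gene in both, at 93.1, 172, 72.8 and 114 CPM in NK cells, where the immediate early genes summed to 2548, 3379, 779.7 and 1409 CPM, and the lower gene was Psat1 at 22.2, 21, 38.4 and 21.5 CPM. Among noncycling cells only, the lower values over all 6 classes fell from 5 to 0 with B16F10 and from 3 to 1, Xpot in CD8 T cells, with MC38. Fewer cells were left in that count, and some genes dropped out by the level rule alone. With B16F10 the log2 differences of Asns in CD8 T cells (-1.37), Phgdh in CD4 T cells (-1.41) and Psat1 in Treg cells (-0.82) stayed past 1.5-fold. Psph in Treg cells (-0.55) and Gdf15 in tumor cells (-0.26) fell under it. With MC38, Psat1 in NK cells (-0.59) stayed past it and Phgdh in CD8 T cells (-0.44) did not.

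In the tumor class, some of these genes passed the size rule between the B16F10 pools and none between the MC38 pools. The inoculated cells had the same genotype in both hosts, but the MC38 class may also hold host stromal cells. With B16F10, 3 of 29 genes were higher and 1 lower in Lrrc25-/- hosts (2.25% and 0.24% of all genes), 25 of the 29 lay above 0, and the median was 0.24 against 0.01 for all genes. With MC38, 0 of 27 passed in either direction (0.773% and 0.819%), with a median of 0.01 against -0.05. The higher genes were Ddit3 (62.9, 112, 29.3 and 32.9 CPM, 1.79-fold (95% interval 1.72 to 1.86)), Chac1 (36, 67.1, 12.8 and 14.9 CPM, 1.86-fold (95% interval 1.77 to 1.96)) and Trib3 (31.1, 48.5, 19.1 and 22.9 CPM, 1.56-fold (95% interval 1.47 to 1.65)), that is CHOP, a glutathione-degrading enzyme and a feedback pseudokinase. Atf4 stood at 286, 355, 219 and 264 CPM and Asns at 161, 188, 80.1 and 81.9 CPM, higher in the same pool but under the size rule, and Phgdh was nearly equal at 232, 234, 227 and 226 CPM. Gdf15 went the other way, at 168, 99.2, 16.7 and 19.8 CPM (0.590-fold (95% interval 0.570 to 0.610)). The 12 measured genes of the endoplasmic reticulum's unfolded protein response had a median of 0.41 with B16F10, none past the size rule. The B16F10 tumor cells of the Lrrc25-/- pool also had a higher median mitochondrial share (0.277% and 1.11%) and fewer cycling cells (67.7% and 55.3%). Among noncycling tumor cells the log2 differences of Ddit3, Chac1 and Trib3 were 0.96, 1.30 and 0.91 and still passed the size rule, whereas that of Gdf15 was -0.26 and did not. With TMM scaling Trib3 fell under the rule (0.46), and with thinned cells Chac1 did (0.48). The part of the mitochondrial share was not tested.

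**Figure D3:**
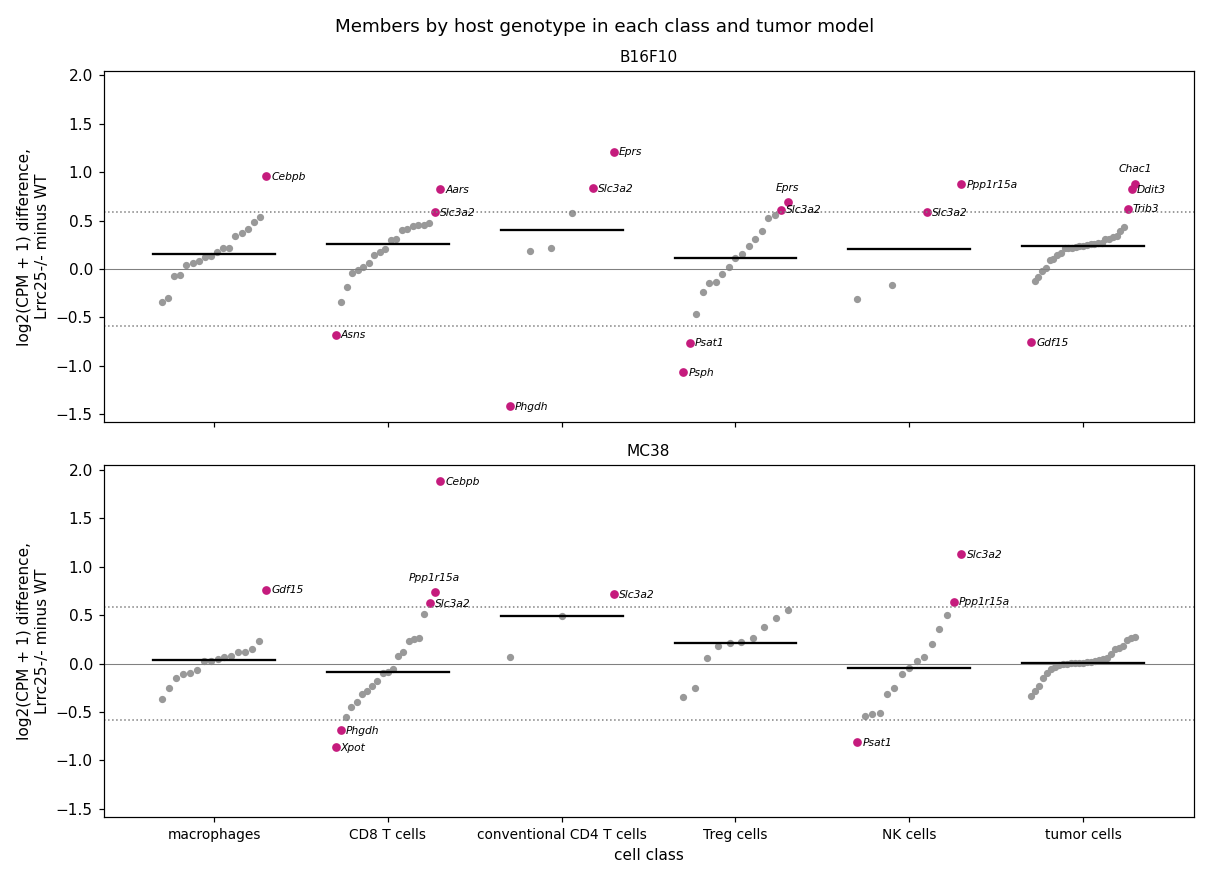
Difference in log2(CPM + 1), Lrrc25-/- minus WT, for each gene that met the level rule (points) in each cell class (horizontal axis), with B16F10 above and MC38 below. Black bars mark medians, dotted lines mark 1.5-fold, and colored, named points pass the size rule: Slc3a2 does so in 7 of 8 lymphocyte comparisons, and no gene does in MC38 tumor cells.

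**Figure D4:**
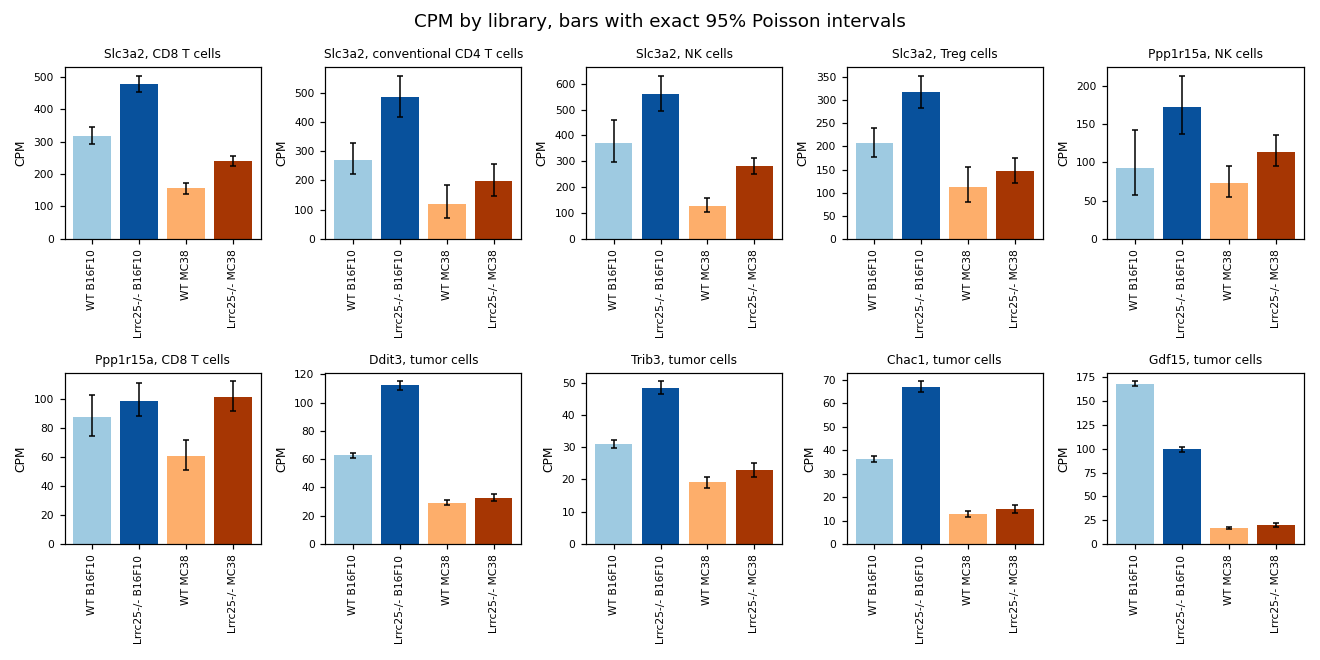
CPM in the 4 libraries (bars, with exact 95% Poisson intervals that cover counting error only) for Slc3a2 and Ppp1r15a in lymphocyte classes and for Ddit3, Trib3, Chac1 and Gdf15 in tumor cells. Slc3a2 is higher in the Lrrc25-/- bar of each model in all 4 classes shown, and Ddit3, Trib3 and Chac1 are highest in Lrrc25-/- B16F10.

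The replicated test of genotype, over both tumor models with the model as a term, called none of these genes. In macrophages, CD8 T cells, Treg cells and NK cells, edgeR called 0 of 32, 30, 28 and 24 genes and DESeq2 also called 0, while 3, 4, 2 and 4 genes had an unadjusted p under 0.05. Among all genes edgeR called 0.0889% higher and 0.041% lower in macrophages, 0.0% and 0.0296% in CD8 T cells, 0.0% and 0.0% in Treg cells, and 0.362% and 0.0944% in NK cells. DESeq2 called 0.0297% and 0.0148% of all genes in macrophages, 0.00544% and 0.0109% in CD8 T cells, and 0.0% in Treg cells and NK cells. With 2 pools against 2 and 1 residual degree of freedom, a missed threshold does not show that levels were equal.

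Between immune classes of the same libraries, CD8 T cells were compared with macrophages. With library as a block (3 residual degrees of freedom), edgeR called 7 of 32 genes higher and 10 lower in CD8 T cells (19.8% and 24.8% of all genes), shares near those of all genes. The higher genes were Phgdh (82.9, 95.8, 52.2 and 32.2 CPM, log2 difference 2.95 ± 0.30 (SE, adjusted p = 0.00051)), Slc1a5 (48.9, 65.4, 81.6 and 61.6 CPM, 1.75), Psph (25.9, 27.1, 30.6 and 24.5 CPM, 1.35), Slc7a5 (10.9, 19.2, 24.6 and 29.7 CPM, 1.31), Aldh18a1 (0.96), Asns (0.56) and Mthfd2 (0.42). The lower genes were Gdf15 (-5.19), Cebpb (-3.44), Atf5 (7.48, 7.60, 6.47 and 4.95 CPM, -1.37), Trib3 (5.18, 5.94, 1.73 and 0.824 CPM, -1.20), Ppp1r15a (-1.01) and Ddit3 (23, 31.7, 7.77 and 16.2 CPM, -0.97), together with the synthetases Nars, Aars, Cars and Wars. Gdf15 in CD8 T cells of B16F10 tumors was close to what macrophage RNA in the droplets would give. Atf4 did not pass the test (-0.28 ± 0.16 (SE, adjusted p = 0.2)). Of the lists beside these, 9 of 14 unfolded protein response genes and 10 of 12 immediate early genes were also lower in CD8 T cells. The count of higher genes ran from 3 to 6 and that of lower genes from 5 to 8 when 1 library was left out. They were lowest without Lrrc25-/- MC38 and without Lrrc25-/- B16F10, respectively, and Atf5, Cebpb, Gdf15, Nars, Phgdh, Ppp1r15a, Psph and Slc1a5 were called in every such fit, while Asns, Mthfd2 and Wars were called in none. With class totals as the scale the median of all genes moved from -0.06 to 0.20, with 10 higher and 7 lower.

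Lymphocyte classes were also compared with each other, and few of these genes or of all genes were called. NK cells against CD8 T cells gave 0 higher and 1 lower of 29 (4.77% and 5.32% of all genes), with 4 at an unadjusted p under 0.05. The lower gene was Mthfd2 (48.7, 37.8, 23.3 and 22.4 CPM in NK cells and 61.6, 54.2, 41.4 and 49.5 CPM in CD8 T cells, -0.74 ± 0.19 (SE, adjusted p = 0.025)), and DESeq2 called none of these genes (2.76% and 2.21% of all genes), nor did edgeR without either MC38 library. Treg cells against CD8 T cells gave 0 higher and 1 lower of 29 (5.32% and 5.85%), with 6 at an unadjusted p under 0.05. That gene was Slc3a2 (207, 317, 113 and 146 CPM in Treg cells, -0.73 ± 0.13 (SE, adjusted p = 0.003)), lower in Treg cells in each of the 4 libraries. Phgdh was at 157, 142, 48.7 and 72 CPM in Treg cells and 79.8, 58.8, 42.6 and 39.5 CPM in NK cells.

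Within macrophages, cells with Arg1 UMIs past a set level were compared with those with Cxcl9 UMIs past it, the former often described as tissue-repair-like and the latter as interferon-responsive. Cells positive for Arg1 made up 8.76% to 68.0% of macrophages per library and cells positive for Cxcl9 5.48% to 46.1%, more in MC38. These shares include cells positive for both genes, which were left out of the comparison. It held 251, 671, 3672 and 2271 Arg1+ cells and 153, 203, 1105 and 1774 Cxcl9+ cells. Of 31 genes, 3 were higher and 2 lower in the Arg1+ cells (6.76% and 5.82% of all genes). Atf5 (29.5 against 11.8, 25.8 against 9.96, 10.2 against 8.31 and 11.5 against 7.02 CPM, 0.99 ± 0.21 (SE, adjusted p = 0.018)), Cebpb (0.54) and Sars (0.45) were higher. Gdf15 (674 against 1396, 611 against 1693, 9.49 against 18.1 and 17.2 against 24.4 CPM, -0.82 ± 0.14 (SE, adjusted p = 0.0072)) and Psat1 (-0.68) were lower. Without the WT B16F10 library 0 genes were higher, and Psat1 and Sars each missed the threshold in 3 of the 4 fits that left out 1 library. The contrast between tumor models was also made within both subsets by edgeR: 18 of 31 genes were lower and 3 higher in Arg1+ cells of MC38 tumors (24.1% and 26.7% of all genes), and 14 of 29 lower and 4 higher in Cxcl9+ cells (26.9% and 30.4%). With DESeq2 the counts were smaller, 10 lower and 2 higher in Arg1+ cells (14.8% and 16.6% of all genes) and 6 lower and 1 higher in Cxcl9+ cells (14.8% and 15.9%).

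Psat1, Psph, Shmt2, Mthfd2, Slc7a5, Aars and Gars were called higher in cycling than in noncycling cells of both classes compared, CD8 T cells and macrophages. In CD8 T cells 9 of 28 genes were higher and 3 lower in cycling cells (13.5% and 11% of all genes). Phgdh stood at 131 against 54.2, 202 against 43.8, 88.4 against 34.2 and 58.8 against 25.1 CPM (1.57 ± 0.17 (SE, adjusted p = 6.2e-06)). Psat1 stood at 46.2 against 16.5, 55.3 against 13.8, 52 against 18.1 and 30.1 against 17 CPM (1.46) and Shmt2 at 72.3 against 26.7, 61.3 against 21.1, 23.4 against 18.1 and 22.2 against 10.1 CPM (1.19). All 3 were higher in the cycling cells of every library. Mthfd2 (1.06), Aars (1.03), Asns (0.98), Psph (0.95), Slc7a5 (0.62) and Gars (0.53) were the other higher genes. Cebpb (13.9 against 29.4, 11.1 against 33.4, 9.10 against 9.69 and 10.5 against 44.9 CPM, -1.41), Ppp1r15a (-0.58) and Slc3a2 (-0.46) were lower.

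In macrophages 13 of 32 genes were higher and 2 lower in cycling cells (16.7% and 15.5% of all genes), with smaller sizes. The largest were Psat1 (44.5 against 25.2, 40.01 against 19, 30.6 against 13.5 and 27.4 against 11.1 CPM, 0.99 ± 0.09 (SE, adjusted p = 7.9e-05)), Shmt2 (0.85) and Mthfd2 (0.83), and 7 of the 11 synthetases were among the 13. Phgdh did not pass the test in macrophages (0.03 ± 0.13 (SE, adjusted p = 0.88)). Ddit3 (-0.35) and Slc3a2 (-0.16) were lower. Without the Lrrc25-/- MC38 library 5 genes were higher. Cycling CD8 T cells had a median of 6630 to 13336.5 UMIs per library and noncycling ones 2717 to 4708.5, and with every cell thinned to 1000 UMIs 0 genes in CD8 T cells and 3 in macrophages were still called higher.

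**Figure D5:**
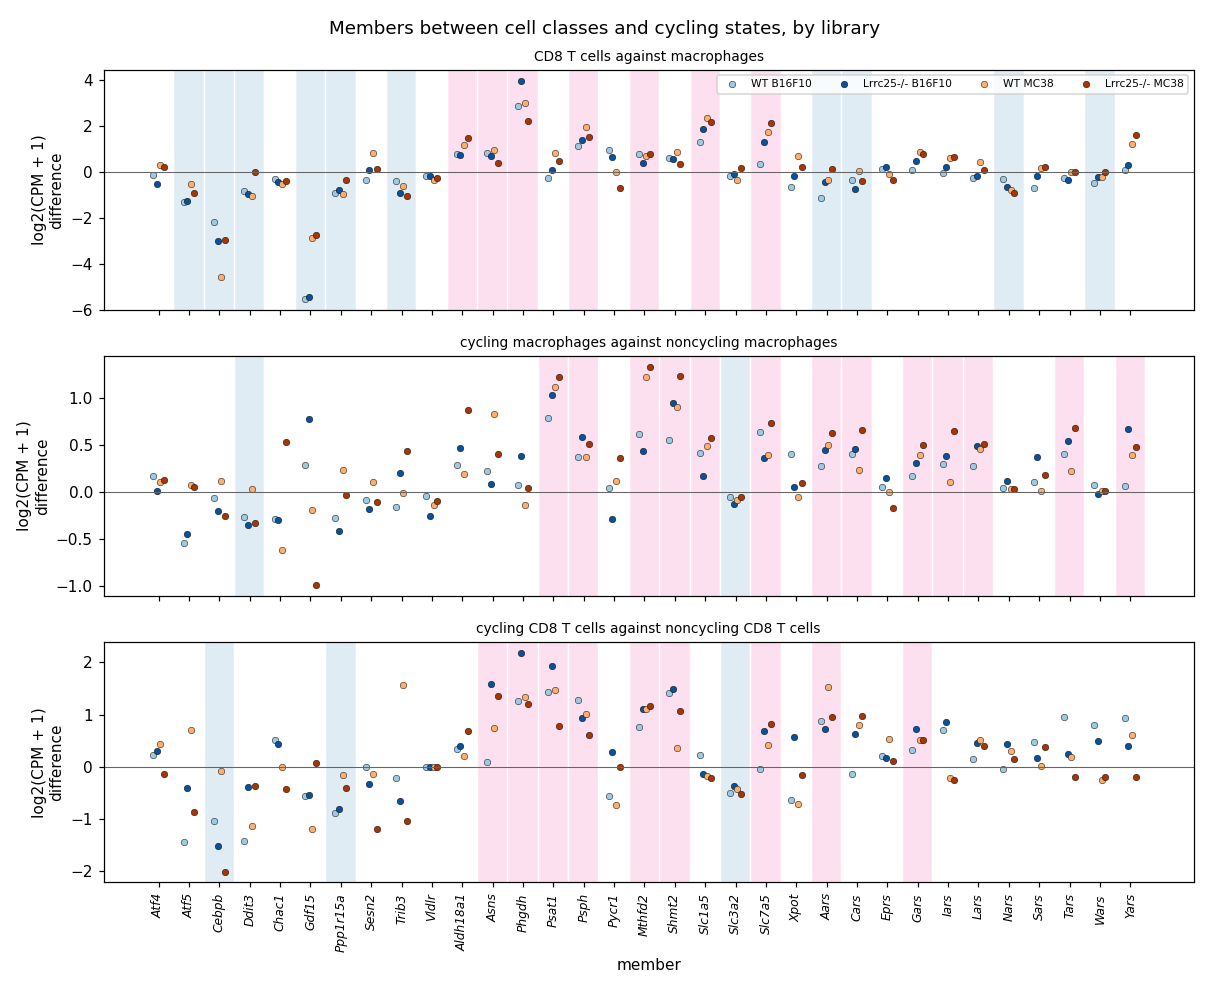
Difference in log2(CPM + 1) of each gene in each of the 4 libraries (points) for CD8 T cells against macrophages (top), cycling against noncycling macrophages (middle) and cycling against noncycling CD8 T cells (bottom), with pink columns called higher and blue columns called lower by edgeR. Phgdh, Psat1, Shmt2 and Mthfd2 points lie above 0 in all 4 libraries in cycling CD8 T cells, and Gdf15 and Cebpb lie below 0 in CD8 T cells against macrophages.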

How the data were processed

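The matrix deposited for each library held raw UMI counts, whole numbers that the authors had not normalized. The genome build was mm10, according to the submitters' processing notes. Which aligner, counting tool, annotation and strand setting were used is not given in the sources used here. Barcodes with at least 300.0 genes, 500.0 UMIs and at most 20.0% mitochondrial UMIs were kept, and the highest Scrublet scores (scanpy 1.11.5) were removed at an assumed 0.5% doublets per 1000 cells, 480 to 1494 per library. Libraries shared 96 to 247 barcodes.

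Cell classes came from marker gates, whose cut-offs were set after the marker distributions had been seen. Macrophages needed 5 of 9 markers, T cells 3 of 8, melanoma cells 5 of 8, and MC38 tumor cells 2 of 10 with no Ptprc UMI. Cells with 3 of 8 cycling markers were called cycling, and Arg1+ or Cxcl9+ cells held at least 5 UMIs of that gene per 10000. Cells that reached this level for both genes were placed in neither subset. Monocytes, neutrophils and fibroblasts, whose gates mixed cell types, are not analysed here.

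Counts summed per class and library were tested with edgeR 4.0.16 (quasi-likelihood, TMM, filterByExpr) with Benjamini-Hochberg adjustment over all genes tested and a threshold of 0.05. DESeq2 1.42.0 was an alternative. The replicates of a genotype are pools under different tumor models. In the genotype fits, p-values measure how the genotype difference varied between the models. In the tumor model fits they measure how the model difference varied between genotypes, and in the class fits how the class difference varied between libraries. Intervals of counts are exact Poisson and those of ratios exact conditional binomial, both at 95%. The edgeR fits were also run on counts simulated with the levels and spread of these data and 200 altered genes. The genotype fit in macrophages called 60% of genes altered 2-fold, 99% of those altered 4-fold, and 15 unaltered genes.

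The members and lists were chosen with earlier results of these data known. Values in every library are given for genes that pass the size rule, or a replicated test with at least a 2-fold difference, and for 10 genes in any case (Atf4, Ddit3, Asns, Trib3, Chac1, Psat1, Mthfd2, Slc7a5, Slc3a2, Wars). Genes outside the 33 are named by their list, the largest differences first. Ddit3 has a second row with 0 UMIs, which was not used. Atf5, Ddit3, Psph, Shmt2, Cebpb, Ppp1r15a, Wars and Yars overlap a gene on the other strand, and Aars and Sesn2 one on the same strand, so some of their reads may belong to the neighbour.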

Additional observations from a re-analysis of the deposited data

Results flagged for a closer look

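In 15 differences of named genes with 4 library values, a library was marked where its gap to the nearest other library exceeded Dixon's 95% critical value, which chance gives in about 1 of 20. For Phgdh in cycling against noncycling CD8 T cells, the Lrrc25-/- B16F10 library lay above the others, with a log2 difference of 2.18 against 1.20 to 1.34. For Mthfd2 in the same comparison, the WT B16F10 library lay below the others, with 0.76 against 1.10 to 1.17. All 4 libraries had the same direction for both genes. Cycling CD8 T cells numbered 48 in WT B16F10 and 86 in Lrrc25-/- B16F10.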

How the results depend on the processing

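Of the recomputed counts behind the main comparisons, 157 stayed within 1.5 times the reported count and 63 did not. The cause was not tested except where fewer cells, genes or samples were used. Gene-by-class values higher and lower in Lrrc25-/- hosts went from 12 and 5 to 20 and 12 with B16F10, and from 7 and 3 to 15 and 14 with MC38, at 10 CPM and 20 UMIs. With a lower fold threshold they were 31 and 8, and 14 and 12. With noncycling cells only, the lower counts were 0 and 1, where some genes missed the level rule and not the fold. With cells thinned to 1000 UMIs the B16F10 counts were 6 and 0 and the MC38 lower count 0. Medians between genotypes turned in sign in small classes. At 10 CPM and 20 UMIs, the CD4 T cell medians were -0.000417 (B16F10) and -0.094 (MC38) and that of NK cells with B16F10 was -0.33. Treg cells with B16F10 turned to -0.026 with TMM and to -0.034 with per-cell means, Treg cells with MC38 to -0.0033 in noncycling cells and -0.036 under a stricter gate, and NK cells with B16F10 to -0.063 under that gate. Aars in CD8 T cells with B16F10 turned to -0.21 after thinning. In the genotype test, no filter on low counts gave 1 higher gene in CD8 T cells and 1 in NK cells.

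In the tumor model test, class totals as the scale gave 5 higher genes in macrophages, 5 higher and 7 lower in CD8 T cells, 6 lower in Treg cells and 3 lower in NK cells. DESeq2 gave 0 higher and 7 lower in CD8 T cells, 3 lower in Treg cells, and 0 higher and 1 lower in NK cells, and no filter gave 4 lower in NK cells. Between classes, dropping the library block left 3 genes lower in CD8 T cells than in macrophages, 0 lower in NK cells and 0 lower in Treg cells than in CD8 T cells, 0 higher and 0 lower in Arg1+ cells, 0 higher and 0 lower in cycling macrophages, and 1 higher and 0 lower in cycling CD8 T cells. Thinning left 5 lower in CD8 T cells against macrophages, 0 lower in NK cells, 1 higher and 1 lower in Arg1+ cells, 3 higher in cycling macrophages, and 0 higher and 0 lower in cycling CD8 T cells. DESeq2 gave 0 lower in NK against CD8 T cells. Treg against CD8 T cells gave 1 higher with class totals and 2 with no filter, Arg1+ cells 5 lower with class totals and 6 higher with no filter, and cycling macrophages 1 lower with class totals and 5 with no filter.

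Leaving out 1 library at a time gave 3 to 6 higher and 5 to 8 lower genes in CD8 T cells against macrophages, 0 to 1 lower in NK against CD8 T cells, 0 to 2 higher in Treg against CD8 T cells, 0 to 4 higher and 1 to 2 lower in Arg1+ against Cxcl9+ cells, 5 to 11 higher and 0 to 5 lower in cycling macrophages, and 6 to 10 higher and 2 to 3 lower in cycling CD8 T cells. The genotype and tumor model fits have 0 residual degrees of freedom without 1 library, so no such test was made. No paired analysis was possible because each group holds 1 pool, so no replicate numbers pair the samples. The class fits have the library as a block, and the genotype fits the tumor model as a term.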
